A study of Homo sapiens with 6 samples.

Results

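The genes of the translation initiation factors, eIF1 to eIF6, were taken from a deposited exon annotation by their names: EIF, a digit from 1 to 6, then capital letters or digits. The rule found 52 genes of the 13721 gene names listed, and 50 of the 52 had at least 1 intron. The annotation was made for the human glioma cell line U-87 MG, in coordinates of the genome build hg19. It served 3 libraries of cells that had received 10 uM EPZ015666 for 72 h and 3 libraries of cells that had received DMSO, the vehicle, at 10 ul per 10 ml of medium for 72 h. EPZ015666 inhibits the arginine methyltransferase PRMT5, all libraries were poly(A)-selected, and the labels do not say whether the replicates were separate cultures. The annotation holds 0 columns of values per library, and tables of expression that the labels also name were not analysed here. Expression levels, depth and replicate error are therefore not given, EPZ015666 was not set against DMSO, and every value below is a position, a length or a count of listed structures.

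Translation of most messenger RNAs begins when eIF4F binds the cap, eIF3 and the ternary complex of eIF2, GTP and initiator tRNA join the small ribosomal subunit, and the assembly scans to a start codon. eIF2B reloads eIF2 with GTP, and stress kinases block that step by phosphorylating eIF2. eIF5 and eIF5B then release the factors and join the large subunit, and 4E-binding proteins hold back the cap-binding protein eIF4E.

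The file listed 124 isoforms for the 52 genes, of which 86 were distinct in their exon positions. At least 1 isoform was given more than once in 36 of the 52 genes (69.2%), beside 55.9% of all 13721 genes. There were 28 factor genes with 1 distinct isoform (53.8%), beside 65.0% of all genes, and 24 with more. Isoforms carry a numbered group in their names, which the sources used here do not explain. Within each of the 52 genes all isoforms began at the same base, while 2 genes of the whole file had isoforms that began at different bases. A start was counted as different where first exons differed in their donor, the base at which an exon is joined onward: 0 of the 50 factor genes with introns had more than 1 start, beside 0 of all 12462 genes with introns (0%). An internal exon was called skipped where another isoform joined its neighbours exactly, and 0 of 50 factor genes had one, again beside 0 of 12462 (0%). In 0 genes of the file did an isoform depart from the longest one before its own final exon. The listed isoforms of a factor gene could thus differ in where and how they ended, and in nothing else.

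Alternative ends were of several kinds, and the kind on which most of the following turns is the early end. An early end is a final exon that stops before the most distant final exon of the same gene begins. Such ends were listed for 9 factor genes: EIF2AK4, EIF2B2, EIF2B3, EIF2B5, EIF3E, EIF3K, EIF4E2, EIF4G2 and EIF4G3. That was 18% of the 50 factor genes with introns, beside 17.1% of all genes with introns (2125 of 12462), so the share lay near that of the whole file. In 8 of the 9 genes at least 1 early isoform ended because a listed exon ran on past its donor into the next intron. The last 24 bases of the exons that ran on are shown because they are the junctions at which the early and the full-length isoform part. They were read from GENCODE v29 transcripts (build GRCh38) whose exon and following intron had the listed lengths, and are written 5′ to 3′ on the strand of the gene, with the last 3 bases of the exon in capitals.
EIF2AK4 exon 3: ctggccaagaaacactgtgggGAG
EIF2AK4 exon 11: ggagcttttggagctgtcatcAAG
EIF2B2 exon 6: cctatgttcaaactttctccaCAG
EIF2B3 exon 5: cattaagggatccatcctacaGAA
EIF2B5 exon 2: tgctcaaatcaaagaacatttACT
EIF3K exon 7: ttgtggagaagattgactttgACA
EIF4G3 exon 13: attcaagaaggagccctgtccCAG
Exon 5 of EIF3E, exon 10 of EIF2B3 and exon 14 of EIF4G3 also ran on and are not shown. Exon 2 of EIF4G2, which lies partly outside the coding sequence and is not printed, ended in CAG. An exon ending in AG, as most human exons do, was found at 5 of these 8 donors (62.5%). Among the introns of factor genes that could be placed in a reference transcript, 320 of 560 followed an exon ending in AG (57.1%). EIF2B3 exon 5, EIF2B5 exon 2 and EIF3K exon 7 ended in GAA, ACT and ACA. The letters after the donor were not read, because no genome of the build of the file was used.

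**Figure D1:**
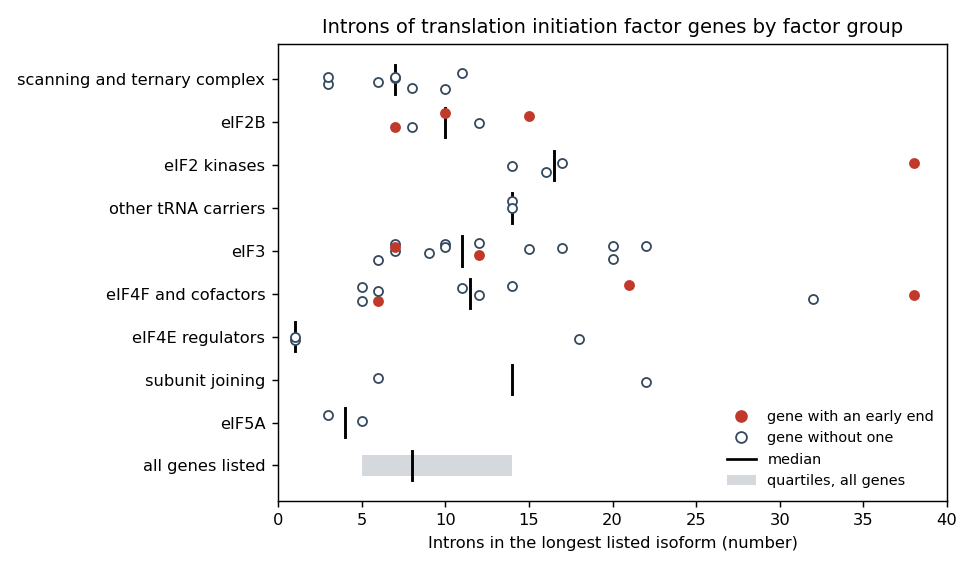
Number of introns in the longest listed isoform (horizontal axis) of each of the 50 factor genes with introns, 1 point a gene, by factor group, with black bars at group medians; filled red points are the 9 genes with an early end. The grey bar spans the quartiles of all 12462 genes with introns (5 to 14, median 8), and EIF2AK4 and EIF4G3 lie farthest right with 38 introns each.

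Median intron number ranged from 1 to 16.5 among the factor groups. The longest isoform of a factor gene held a median of 10 introns (1 to 38), and that of all genes a median of 8. The 600 factor gene introns had a median length of 1034 bases, and those of all genes a median of 1475 bases. The factor genes spanned a median of 21.8 kb and all genes 25.0 kb. The genes grouped under scanning and the ternary complex were short, with a median of 7 introns (3 to 11) over 8 genes. EIF1AD was counted in this group, and its role was not tested. EIF1 and EIF1B, the paralogs that guard start codon choice, had 3 each, and EIF5, the activator of the eIF2 GTPase, had the most, 11. The 5 eIF2B genes had a median of 10, the lowest being EIF2B2 with 7 and the highest EIF2B5 with 15. The 4 eIF2 kinase genes had a median of 16.5. EIF2AK1, the heme-regulated kinase, had 14 introns, EIF2AK3, the kinase of endoplasmic reticulum stress, had 16, EIF2AK2, the kinase for double-stranded RNA, had 17, and EIF2AK4, the sensor of uncharged tRNA, had 38. The 14 eIF3 genes had a median of 11, with the fewest in EIF3F (6) and the most in EIF3A (22). The 10 genes of eIF4F and its cofactors had a median of 11.5, from 5 in the cap-binding genes EIF4E and EIF4E3 to 38 in EIF4G3. EIF2A and EIF2D, which can bring initiator tRNA to the ribosome without eIF2, had 14 each. EIF5B, the GTPase of subunit joining, had 22 and EIF6, which keeps the subunits apart, had 6. The eIF4E regulators had a median of 1 over 3 genes, EIF4EBP1, EIF4EBP3 and EIF4ENIF1. EIF5A and EIF5A2, whose products carry the modified residue hypusine, had 5 and 3.

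EIF4EBP2 and EIF5AL1 were the members listed without introns, although the reference transcript of EIF4EBP2 has 3 exons. EIF4EBP2 was given as 1 exon of 441 bases (chr10:72163862-72164302) and EIF5AL1 as 1 exon of 222 bases (chr10:81272358-81272579). EIF3C (chr16:28722786-28747051) and EIF3CL (chr16:28390903-28415162) are near-identical copies on opposite strands. Both had 20 introns, and they spanned 24266 and 24260 bases, so reads could be assigned to either. The first exon of EIF3L was listed with a length of 1 base.

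By group, early ends were listed for 3 of the 5 eIF2B genes, 1 of 4 eIF2 kinase genes, 2 of 14 eIF3 genes and 3 of 10 eIF4F genes. The other 5 groups had 0 among 17 genes with introns. Genes with more introns had early ends more often in the whole file. Of factor genes with 1 to 5 introns, 0 of 8 had an early end, beside 7.16% of all such genes. With 6 to 14 introns 5 of 28 factor genes had one (17.9%), beside 16.7% of all such genes. With 15 or more introns 4 of 14 had one (28.6%), beside 30.5% of all such genes. In each of these intervals the factor genes thus lay near or under the share of the file.

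The 16 early-ending isoforms of the 9 genes stopped between 12.6% and 93.2% of the way along their gene, with a median of 63.6%. Isoforms that share an end, as in EIF4G3, EIF3E and EIF3K, were counted separately. The median is the EIF4G3 end, which 4 isoforms share, and so it does not describe distinct ends. By where the final exon began, 11 of the 16 ran on from a listed exon, 4 were called separate and 1 began inside a listed exon. A final exon was called separate if it began outside the internal exons of the gene. Those of EIF4G3 groups 1 and 2 were called so, although further on they contained exons 13 and 14. Those that ran on went between 16 and 3410 bases past the donor (median 626). Each of the 16 was listed once, while 4 of the 11 other isoforms of the same genes were. In the whole file 94.6% of early-ending isoforms and 52.2% of the other isoforms of such genes were listed once. The sources used here do not say what a repeated listing stands for.

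**Figure D2:**
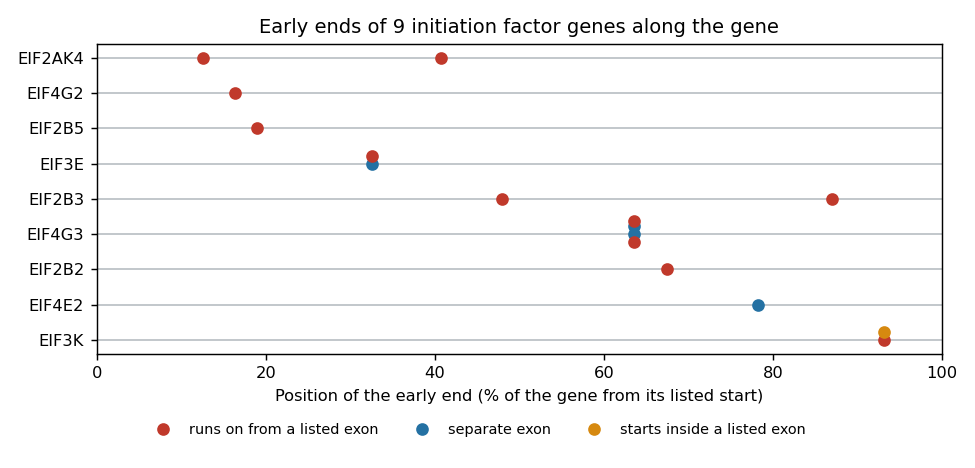
Position of each early end along its gene, as a percentage of the distance from the listed start to the listed end (horizontal axis), for the 9 factor genes that have one; points are isoforms, coloured by how the final exon arises, and are spread vertically where they share a position. EIF2AK4, EIF4G2 and EIF2B5 have ends in the first 20% of the gene, and the EIF3K ends lie at 93.2%. The EIF4G3 final exons coloured as separate begin between listed exons but contain exons 13 and 14.

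Among the eIF2B genes, whose products form the exchange factor that stress signalling inhibits, EIF2B3 (chr1:45323376-45452394), the gene for the gamma subunit, had 2 early ends. In the first, exon 5 of 11 ran on for 1670 bases to a length of 1782 bases, leaving 566 of the 1236 coding bases of the closest reference transcript (45.8%) in the exons up to that point. In the other, exon 10 ran on for 150 bases to 299 bases, and that reference transcript ends in a final exon of 300 bases after the same intron. As that transcript ends at this exon, the exons up to it hold all 1236 of its coding bases (100%) by the choice of transcript. The 45.8% above refers to the same transcript. Neither end was set against the coding bases of a transcript that goes on to exon 11. EIF2B5 (chr3:183852811-183863099), which encodes the catalytic epsilon subunit, ended after exon 2 of 16, at a final exon of 369 bases. A reference transcript has a final exon of that length after the same intron. Exons 1 and 2 hold 320 of 2163 coding bases (14.8%). EIF2B2 (chr14:75469613-75476292), for the beta subunit, ended in intron 6 of 7, 702 bases past the donor, with 831 of 1053 coding bases (78.9%) upstream. EIF2B1 and EIF2B4, for the alpha and delta subunits, had 0 early ends.

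EIF2AK4 (chr15:40226348-40327792) was the kinase gene with early ends. Its kinase is activated in amino acid shortage. Exon 3 of 39 ran on for 3410 bases, and exon 11 ran on for 1680 bases in a separate isoform. The exons up to the first of these ends hold 360 of 4947 coding bases (7.28%), and those up to the other hold 1818 (36.7%). The exon 11 end, a final exon of 1838 bases, had the length of a reference final exon after the same intron, and no reference transcript had the intron before exon 3 as its last.

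EIF3E encodes a subunit of the eIF3 core that contacts the other subunits through a PCI domain. It spanned 47.0 kb (chr8:109213973-109260959, minus strand) with 13 exons and 3 distinct isoforms. The full-length isoform, listed 3 times, ended in an exon of 180 bases. Both shorter isoforms ended at the same base, chr8:109245624, which lies 31.7 kb before the end of the gene and 32.6% of the way along it. In the isoform of group 2 this was the end of a separate sixth exon of 278 bases, joined to exon 5 across an intron of 1325 bases. In the isoform of group 1, exon 5 ran on through that intron and that exon to the same base, so that a final exon of 1708 bases replaced exons of 105 and 278 bases and the intron between them. A listed exon that covers an intron of another isoform in this way is called a spanned intron. Here the spanned intron was chr8:109245902-109247226. Exons 1 to 5 hold 471 of the 1335 coding bases (35.3%). The separate exon was 1 base shorter than a reference final exon of 279 bases, and the longer final exon exceeded the nearest reference final exon after the same intron, of 819 bases, by 889 bases.

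**Figure D3:**
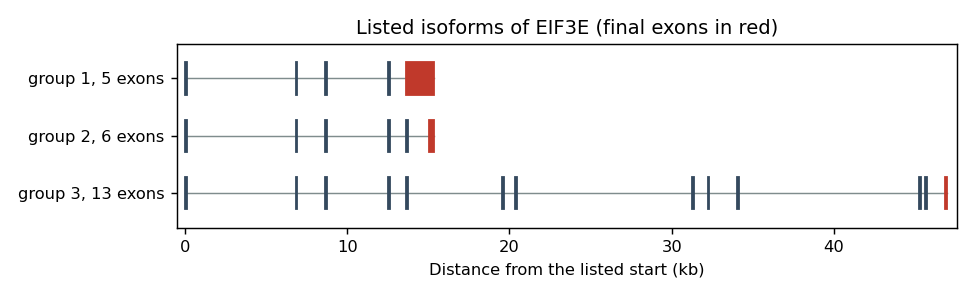
The 3 distinct isoforms of EIF3E, with exons as boxes (final exons red) and introns as lines, against distance from the listed start in kb (horizontal axis); narrow exons are widened to be visible. The isoforms of groups 1 and 2 end at the same base, 32.6% of the way along the gene, the upper one in 1 exon of 1708 bases and the lower one in a separate exon of 278 bases.

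The 13 other listed eIF3 genes had 6 to 22 introns, against 12 in EIF3E, and 0 of them had a spanned intron. EIF3K (chr19:39109723-39127595) was the only partner gene with early ends. Its final exon of 752 bases ran on 626 bases past the donor of exon 7 of 8, and a further isoform used an acceptor, the first base of an exon, 4 bases downstream, for a final exon of 748 bases. The EIF3K ends left 1.21 kb of the gene, and the exons up to the longer form hold 625 of 654 coding bases (95.6%), so this end and that of EIF3E lay at opposite parts of their genes. EIF3H, the partner with the widest gene (114 kb), had 7 introns, the longest of 67035 bases, and 1 final acceptor. Its final exon was listed with 271 and with 2973 bases, beside reference lengths of 271 and 2974. EIF3A, the scaffold subunit gene, had final acceptors 4 bases apart, and EIF3I had 2 that lay 145 bases apart. EIF3J listed its final exon with both 725 and 1786 bases inside each of its isoforms.

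EIF4G3 was the longest factor gene, at 370 kb (chr1:21132964-21503381, minus strand), with 39 exons. It encodes one of the scaffolds that tie the cap-binding protein to the helicase eIF4A and to eIF3. It had 6 distinct isoforms in 5 numbered groups. The 4 isoforms of groups 1 to 4 all ended at chr1:21267736, which lies 16 bases past exon 14, 135 kb before the end of the gene and 63.6% of the way along it. They differed in where their last exon began. It began at 21275456 in group 1 (7721 bases), at 21273829 in group 2 (6094 bases), at 21268823 in group 3 (1088 bases) and at 21267888 in group 4 (153 bases). The start in group 3 was the acceptor of exon 13 and that in group 4 the acceptor of exon 14. The final exons of groups 1 to 3 covered the intron between exons 13 and 14, which was 95 bases long (chr1:21267889-21267983) and the shortest of the 38. Exons 1 to 12, which all isoforms of the gene share, hold 652 of the 4863 coding bases of the closest reference transcript (13.4%). With exon 13 the count is 1492 (30.7%), and that transcript has no exon 14. Each early isoform holds exon 13 on its own or within its final exon. In groups 1 and 2 that final exon began in the intron before exon 13, so exon 13 was not joined directly to exon 12. The exons before the final exon hold the 652 bases in these isoforms. The group 4 exon was 1 base shorter than a reference final exon of 154 bases that follows an intron of the same 95 bases.

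**Figure D4:**
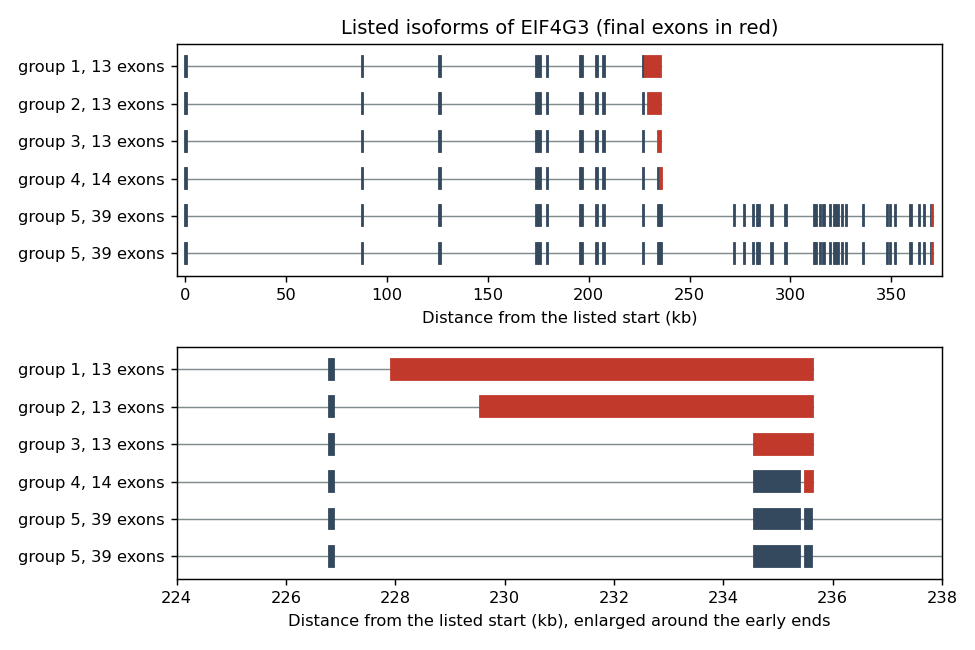
The 6 distinct isoforms of EIF4G3, with exons as boxes (final exons red) and introns as lines, against distance from the listed start in kb; the upper panel shows the whole gene and the lower panel the stretch around the early ends, and narrow exons are widened to be visible. The 4 early isoforms share 1 end, and their last exons measure 7721, 6094, 1088 and 153 bases.

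The partner genes EIF4G1 and EIF4G2 were compact. EIF4G1 had 33 exons in 20.9 kb and no early end, and its final exon was given with 627 and 632 bases. EIF4G2, which encodes a scaffold without the binding site for eIF4E, had 22 exons in 12.0 kb. One of its isoforms ended 180 bases past exon 2, at 16.4% of the gene. The median intron measured 3321 bases in EIF4G3, 218 bases in EIF4G1 and 274 bases in EIF4G2. The helicase gene EIF4A2 had 11 introns and 1 distinct isoform, and EIF4A3, whose product is best known from the exon junction complex, had 12 introns and 2 final exon lengths, 242 and 292 bases. EIF4B, the helicase cofactor gene, had 14 introns and 1 distinct isoform. EIF4H, the other cofactor gene, had 2 final acceptors that lay 2 bases apart. EIF4E2, a cap-binding relative of EIF4E, had a separate early final exon of 266 bases, a length that the reference also has, 5.13 kb before the end of the gene. That call depended on which of overlapping rows is kept, since each EIF4E2 isoform also listed an exon of 5397 bases running from the start of the early exon to the end of the gene.

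Over the 50 factor genes with introns, EIF3E and EIF4G3 were the 2 with a spanned intron (4%), beside 4.18% of all genes with introns (521 of 12462). Final exons with more than 1 acceptor were listed for 14 factor genes (28%), beside 22.5% of all genes. The 5 among them without an early end had acceptors 2 to 145 bases apart: EIF2AK2, EIF2B1, EIF3A, EIF3I and EIF4H. More than 1 end from the same acceptor was listed for 13 factor genes (26.0%), beside 23.7% of all genes. In 5 of the 13 the 2 ends differed by over 600 bases. EIF1 had 218 and 865 bases, both reference lengths. EIF2S2, which encodes the beta subunit of eIF2, had 1607 and 9635 bases, where the nearest reference length was 1608. EIF2D had 203 and 2562 bases. EIF3G, an RNA-binding eIF3 subunit gene, had 112 and 3836 bases, where the nearest reference lengths were 112 and 113. EIF3H is given above. The extra bases of EIF2S2 (chr20:32668077-32676104) and of EIF3G (chr19:10221970-10225693) overlapped listed exons of genes on the opposite strand, RALY and PPAN. Whether reads of those genes entered the longer ends was not tested.

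The listed structures were also set against GENCODE v29, by exon and intron lengths within the gene of the same name and never by position, since the builds differ. Of the 600 factor gene introns 575 had a reference length (95.8%), beside 92.0% of all introns in genes that could be compared. Every intron had a reference length in 36 of 50 factor genes (72.0%), beside 54.8% of all 11310 such genes. An exon inside a reference intron was found in 2 factor genes (4%), beside 23.9% of all genes. These were EIF2AK2, with an exon of 58 bases, and EIF4G3, with an exon of 126 bases that was its sixth. An intron inside a reference exon was found in 3 factor genes (6%), beside 5.24% of all genes. It measured 90 bases in EIF3A, 291 bases in EIF4G3 as the last intron, and 91 and 135 bases in EIF1AD. An intron with 1 edge moved was found in 6 factor genes (12.0%), beside 8.28% of all genes.

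The listed isoform stopped before the last reference exon in 9 factor genes (18%), beside 19.0% of all genes that could be compared (2144 of 11310). They were EIF2S3, EIF3B, EIF3F, EIF3M, EIF4E, EIF4E2, EIF4E3, EIF5A2 and EIF5B, and each was 1 exon short. Most such genes of the file, 1795 of 2144, were 1 exon short as well. The EIF4E2 call rests on its last exon of 79 bases, kept over an overlapping exon of 5397 bases. It was not repeated with the earlier row kept. In 7 of the 9 (77.8%) the last listed exon ended exactly at the reference donor, beside 82.8% of such genes in the file. EIF2S3, for the gamma subunit of eIF2, ended 82 bases before that donor and EIF5B 59 bases before it. In EIF4E (chr4:99806073-99850243), the cap-binding protein gene, 112 of 711 reference coding bases lay past the last listed exon (15.8%). In EIF5A2 it was 57 of 459 (12.4%), in EIF3M 118 of 1122 (10.5%), and in EIF3F 75 of 1071 (7%). EIF3B and EIF4E2 had 0 coding bases past it, as the missing exon lies after the stop codon there.

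**Figure D5:**
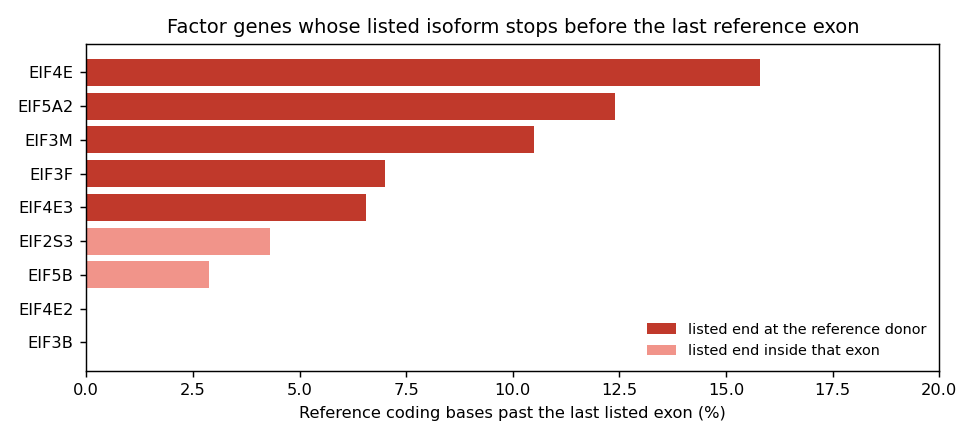
Share of reference coding bases that lies past the last listed exon, in percent (horizontal axis), for the 9 factor genes whose listed isoform stops before the last reference exon; darker bars end at the reference donor and paler bars inside that exon. EIF4E is highest at 15.8%, and EIF3B and EIF4E2 are at 0. The paler bars, EIF2S3 and EIF5B, count the last exon as if it were listed whole. Any coding bases among the 82 and 59 bases missing from it are left out, so these bars can be too short.

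The rows of these genes had a mark that the comparison had not used. In 11 of the 52 factor genes (21.2%) the final exon row was given 2 times in succession within an isoform, and in the whole file in 4322 of 13721 genes (31.5%). Of the 9 factor genes that stop short 8 had the repeated row (88.9%), and of the 41 other factor genes with introns 1 had it (2.44%). In the whole file the shares were 88.5% of genes that stop short and 9.47% of the others. The exceptions among factor genes were EIF4E2 and EIF2AK1. EIF4E2 was called as stopping short without the mark, a call that depends on which of its overlapping rows is kept. EIF2AK1 has the mark at a final exon of 93 bases, where the longest reference final exon after the same intron has 2558. EIF4EBP2 and EIF5AL1, which were listed without introns, had it as well. Each of the 11 genes had 1 listed isoform.

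The 4E-binding protein genes EIF4EBP1 and EIF4EBP3 were listed without their middle exon. The proteins bind eIF4E through a short motif: a tyrosine, 4 residues of any kind, a leucine, and then a leucine, methionine or phenylalanine. An intron that skips a reference exon was found in 2 factor genes (4%), beside 3.84% of all genes. In EIF4EBP1 the single intron of 29185 bases equalled 2 reference introns and the 180-base exon between them. In EIF4EBP3 (chr5:139927252-139929163) the single intron of 1393 bases equalled 2 reference introns and a 171-base exon. The single exon of EIF4EBP2 had the length of no reference exon of the gene and could not be placed.

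The motif was searched in frame in the coding sequence of the reference transcript, and each of the 3 genes had 1 match, in exon 2 of 3, the exon that the listed isoforms of EIF4EBP1 and EIF4EBP3 lack. Whether the listed exon of EIF4EBP2 holds it was not tested. The match is shown for EIF4EBP2 (chromosome 10) and EIF4EBP3 (chromosome 5), with the codons of the tyrosine and of the last 2 residues in capitals.
EIF4EBP2: TATgacagaaagtttCTGTTG
EIF4EBP3: TACgaccgaaagttcCTGCTG
The motif was found in the reference coding sequence of 12 of the 52 factor genes (23.1%), which include the 2 listed without introns. Of the 11310 genes with introns and a coding reference 19.1% had it. A match alone therefore does not show that a product binds eIF4E. EIF4ENIF1, which encodes another eIF4E-binding protein, had 18 introns and 1 distinct isoform.

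Of 56 coding genes of the reference whose names meet the rule, 52 were listed. The 4 others were EIF1AY, EIF2S3B, EIF4A1 and EIF4E1B. EIF4A1, which encodes the main helicase of eIF4F, was found under the name of a small nucleolar RNA, SNORA67: all 9 of its introns (chr17:7475603-7481562, plus strand) had the length of an EIF4A1 intron. The locus had 10 exons, against 11 in the closest reference transcript, and its last rows overlapped, with lengths of 80 and 18 bases. With EIF4A1 counted, 53 of the 56 were found. The same search returned nothing for the other 3, but it needed 3 introns in common. A gene with fewer introns could not be found by it, so absence of the 3 from the file is not shown. The old EIF2C names of the Argonaute genes, which would have met the rule, were not among the listed names. In all, 6 names in the file were small RNA genes of the reference, and 3 of them had 3 or more introns.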

How the data were processed

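Values are exon start and end positions of 1 exon annotation of 9 columns and 382567 rows, which the authors deposited for all 6 libraries together. Its start and end columns give positions in bases, per the deposited rows. The tools in the submitters' processing notes, given there with no role, are RSEM, DESeq 1.10.1, STAR 2.4.1d, bedtools 2.20.1 and Bowtie 1.0.1, with hg19 and GRCh37 as builds. Depth is unknown.

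A new isoform began at each change of parent name and at each step back along the strand, giving 31659 isoforms. Rows whose end preceded their start (76) were dropped, and of consecutive overlapping exons (10093) the later was kept. The isoform with most exons stood for a gene. Reference transcripts (GENCODE v29, GRCh38) were matched to a gene by name and to its isoforms by lengths of exons and introns. The closest transcript shared most intron lengths, and ends were taken from the basic set. A gene under another name needed 3 introns and 50% of its introns in common, on the same chromosome and strand.

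The members, groups and lists were chosen with earlier results of these data known. Every member may be named, and those with an early end, a spanned intron, or the most or fewest introns of their group are given in full. Values are counts and medians, and no test was run. The code was checked on 600 made-up genes with features planted to fit the definitions. It recovered 540 of 540 and made 0 other calls. The made-up genes held no overlapping or repeated rows, so the check does not cover calls that rest on such rows. Python 3.11.15 and matplotlib 3.10.9 were used.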

Additional observations from a re-analysis of the deposited data

How the results depend on the processing

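No paired analysis was possible because the deposited rows carry no value for single libraries. Of 13 alternatives, 12 left their count or median within 1.5 times the reported value. For 1 of the 12 this was fixed in advance. It counted early ends only in members with 2 or more listed isoforms, which an early end needs anyway, and gave 9. With 2 or more final exon acceptors in place of early ends, 14 factor genes counted instead of 9. With the earlier of overlapping exons kept, 8 had an early end, EIF4E2 being lost. With partial reference transcripts also counted as ends, an alternative chosen after seeing the data, 6 factor genes stopped before the last reference exon instead of 9. The other alternatives gave a median of 10 or 10.5 introns, 0 genes with several starts, 0 with a skipped exon, 2 with a spanned intron, 2 with an intron that skips a reference exon and 53 genes listed. Leaving out a replicate was not possible. An annotation limits what can be said: an isoform in it need not be frequent, and its absence does not show that the RNA is absent.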

Other observations

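Genes of the same pathway outside the naming rule were listed in full, 20 of 20, all with introns (median 12). Early ends were listed for 4 of them (20%), beside 17.1% of all genes with introns: LARP1, which binds capped terminal oligopyrimidine messages, PABPC1, the poly(A)-binding protein, CYFIP1, an eIF4E-binding protein of the FMRP complex, and MKNK1, a kinase of eIF4E, which had 2. The paralogs PABPC4 and MKNK2 had 0. A spanned intron was listed for 0 of the 20, beside 4.18% of all genes with introns. The phosphatase regulators that reverse eIF2 phosphorylation, PPP1R15A and PPP1R15B, had 3 and 2 introns and 1 distinct isoform each, fewer introns than any of the 4 eIF2 kinase genes.

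Of 11 elongation and release factor genes 9 were listed under their own names, with a median of 8 introns. EEF1G was found under the microRNA name MIR3654, with 9 of 9 introns of an EEF1G length. No match was found for GSPT2, by a search that could not find a gene with fewer than 3 introns. EEF1E1, which encodes a scaffold protein of the multi-tRNA synthetase complex, had 5 introns but 5 distinct isoforms in 9 numbered groups, with 3 early ends and 2 spanned introns. EEF1D and GSPT1 had 1 early end each. Early ends were thus listed for 3 of the 9 genes (33.3%), beside 17.1% of all genes with introns. A spanned intron was listed for EEF1E1 alone, 1 of the 9 (11.1%), beside 4.18% of all genes with introns. EEF2, the translocase, had 14 introns and 1 distinct isoform.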
